A study of Mus musculus with 8 samples.

Results

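The genes described here encode the nuclear subunits of the oxidative phosphorylation system. They were chosen by symbol alone, as the genes whose names start with Nduf followed by a, b, c, s or v and a number (complex I), with Uqcr (complex III), with Cox4 to Cox8 (complex IV) or with Atp5 (complex V, the ATP synthase), together with Sdha, Sdhb, Sdhc and Sdhd (complex II). The rule found 84 of the 24849 genes listed, of which 37 fell in complex I, 4 in complex II, 8 in complex III, 18 in complex IV and 17 in complex V. Among the symbols are Atp5s and Atp5sl, which encode accessory factors of assembly and not subunits. By their symbols both are counted among the subunits of complex V. The rule leaves out some true subunits with other names, such as Cyc1 and Ndufab1, which are described at the end.

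RNA was sequenced from mouse embryonic stem cells (mESCs) of the MPI-II line, of 129S2/SvPas background, in 4 groups of 2 libraries each. Wild-type (WT) and Pcgf5-/- cells were compared at day 0, when they grew on feeder cells with LIF and the 2i inhibitors CHIR99021 and PD0325901, and after 6 days in N2B27, a serum-free medium that lets mESCs turn into neural cells. The Pcgf5-/- cells had exon 2 of Pcgf5, a subunit of a variant Polycomb repressive complex 1, targeted with TALENs, and were grown from single picked colonies. The labels do not tell which colony gave which library, so p-values measure the spread between these libraries and a trait of a colony cannot be told apart from the genotype.

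Values are FPKM, fragment numbers scaled to transcript length and to the mapped fragments of the library, so levels of different genes can be set side by side per length. The files hold no fragment counts. The total FPKM ranged from 363066 to 411496. The depth, traced from the most common ratio of low values between libraries, was 0.990 to 1.29 times that of WT day 0 replicate 1. Pcgf5 itself had 5.18 and 3.63 FPKM in the WT libraries of day 0 and 1.28 and 1.84 in the Pcgf5-/- libraries, then 9.16 and 5.06 against 0.669 and 0.457 at day 6. It was lower in the Pcgf5-/- libraries on both days. The summed FPKM of 9 mESC markers was 2102 to 2270 in the 4 day 0 libraries, 453 and 260 in WT at day 6, and 1067 and 1053 in Pcgf5-/- at day 6. For 6 neural progenitor markers the sum was 11.4 to 15.7 at day 0, 275 and 270 in WT at day 6, and 94.6 and 110 in Pcgf5-/- at day 6. For 6 neuron markers it was 52.9 to 108 at day 0, 420 and 282 in WT at day 6, and 141 and 127 in Pcgf5-/- at day 6. For 9 fibroblast markers, which feeder cells express, it was 215 to 795 at day 0 and 26.3 to 136 at day 6. None of these 30 markers was at 0 in all libraries. In bulk RNA, fewer cells of a type and less RNA per cell cannot be told apart.

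Oxidative phosphorylation is the last stage of respiration in mitochondria. Complex I takes electrons from NADH and complex II from succinate, complex III passes them to cytochrome c, and complex IV hands them to oxygen, while complexes I, III and IV pump protons that drive the ATP synthase. A small set of core subunits is encoded by mitochondrial DNA and all others by the nucleus. Several complex IV subunits exist as isoforms from separate genes, a widely used form and a form typical of heart, skeletal muscle, lung or testis. Naive mESCs use both glycolysis and respiration, and the balance between them shifts as cells leave pluripotency.

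Promoters of these genes are known for binding sites of NRF1 and of ETS factors such as GABP. The stretches printed here, the 250 bases before the annotated start, are given for Cox7a1, whose genotype effect changed most between the days, for its paralog Cox7a2, and for Cox6a1 and Cox5b, which hold the letters searched. They come from RefSeq on GRCm38.p6, a later build than that of the expression files, and run 5′ to 3′ on the strand of the gene. Capitals mark the letters GCGCATG (NRF1) and CCGGAAG (ETS) on either strand.
Cox7a1, chr7:30183921-30184170, plus strand: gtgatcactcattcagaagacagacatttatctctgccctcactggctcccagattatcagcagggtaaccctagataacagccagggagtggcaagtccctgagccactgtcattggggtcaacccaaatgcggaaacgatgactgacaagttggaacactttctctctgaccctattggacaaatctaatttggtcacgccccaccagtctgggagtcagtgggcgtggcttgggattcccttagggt
Cox7a2, chr9:79759854-79760103, minus strand: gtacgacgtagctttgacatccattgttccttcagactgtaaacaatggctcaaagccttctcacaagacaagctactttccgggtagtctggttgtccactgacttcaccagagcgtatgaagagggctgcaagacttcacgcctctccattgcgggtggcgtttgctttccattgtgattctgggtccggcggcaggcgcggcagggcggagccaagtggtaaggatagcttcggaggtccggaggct
Cox6a1, chr5:115348959-115349208, minus strand: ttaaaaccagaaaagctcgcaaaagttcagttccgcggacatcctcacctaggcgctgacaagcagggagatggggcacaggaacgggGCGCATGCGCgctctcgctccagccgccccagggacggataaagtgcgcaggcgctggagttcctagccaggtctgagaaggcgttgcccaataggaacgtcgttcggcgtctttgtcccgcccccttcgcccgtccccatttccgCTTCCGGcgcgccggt
Cox5b, chr1:36691237-36691486, plus strand: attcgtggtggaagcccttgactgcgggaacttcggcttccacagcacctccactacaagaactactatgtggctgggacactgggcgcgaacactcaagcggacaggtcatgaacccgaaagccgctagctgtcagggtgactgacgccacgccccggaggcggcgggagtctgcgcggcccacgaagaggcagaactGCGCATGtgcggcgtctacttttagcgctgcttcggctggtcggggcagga

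The Cox6a1 stretch held overlapping NRF1 letters on both strands, at 162 and 159 bases before the start, which are the same place read both ways, and the ETS letters at 16 bases before it. In Cox5b the NRF1 letters began 51 bases before the start. Neither Cox7a1 nor Cox7a2 held any of the letters searched. The stretch of Cox7a1 had 4 CpG dinucleotides and a GC content of 51.2%, against 14 and 54.8% for Cox7a2, 26 and 62.8% for Cox6a1, and 22 and 62.4% for Cox5b. Of the 84 genes, 66 matched the RefSeq table by symbol, with 71 promoters. The NRF1 letters were in 14.08% of these and in 3.24% of all 32851 promoters of the same length, and the ETS letters in 16.9% against 6.91%. The letters AGATGGC, read by YY1, were in 2.82% against 4.57%. The median number of CpG was 14 in the subunit promoters, with 1 to 35, and 6 in all promoters.

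Most subunit genes were strongly expressed, and 76 of the 84 had a mean over 10 FPKM. At day 0 the 84 genes together held 2.91% ± 0.178 (SD, n = 2) of all FPKM in WT, and the Pcgf5-/- libraries 2.90% ± 0.238 (SD, n = 2). After 6 days the share was 2.46% ± 0.0162 (SD, n = 2) for WT and 2.61% ± 0.308 (SD, n = 2) for Pcgf5-/-. In WT the day 6 libraries, with 2.45% and 2.47%, lay below the day 0 libraries, with 2.79% and 3.04%. In Pcgf5-/- cells the days overlapped, with 3.07% and 2.73% at day 0 and 2.39% and 2.83% at day 6. The highest level in complex I belonged to Ndufa4, with a mean of 270 FPKM over the 4 groups, a subunit that structural work now places in complex IV. The highest of complex II was Sdhb, an iron-sulfur subunit, with 92.8 FPKM. In complex III it was Uqcrb, with 343 FPKM, in complex IV Cox5b, with 367 FPKM, and in complex V the catalytic beta subunit Atp5b, with 509 FPKM. Uqcrb and Cox5b have near-identical copies elsewhere in the genome, 1 and 2 of them, which can take or lend fragments. The lowest subunits were Ndufs5 in complex I, with 6.96 FPKM, Sdhd in complex II, with 58.1, and Uqcrfs1, the Rieske iron-sulfur protein of complex III, with 53.5. The accessory factor Atp5s was lowest in complex V, with 3.06 FPKM.

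**Figure D1:**
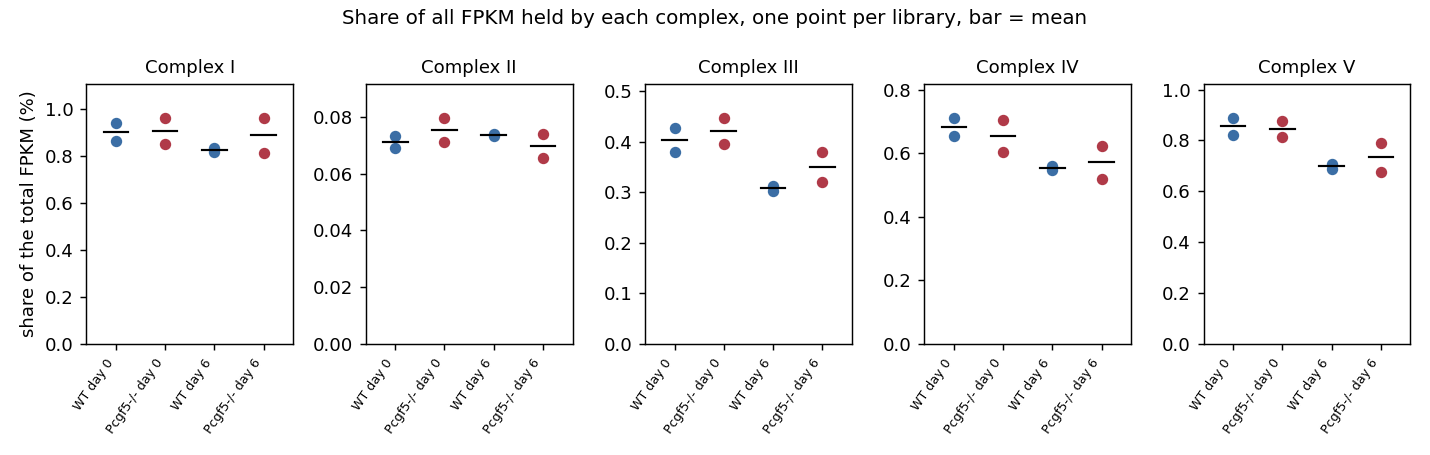
Share of the total FPKM of each library held by the subunits of complexes I to V (vertical axis, %, from 0, with a scale for each panel), with a point for each of the 2 libraries of a group and a bar at their mean. In WT the shares of complexes I, III, IV and V were lower in both day 6 libraries than in both day 0 libraries. For complex II the WT libraries of the days overlapped. Of the 2 Pcgf5-/- libraries of day 6 the higher point in every complex is replicate 2.

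The absent genes were tissue isoforms of complex IV. Cox8b, the heart and muscle form of COX8, was listed at 0 in all 8 libraries. Cox8c had 0.172, 0.193 and 0.375 FPKM in 3 libraries of day 6 and 0 in the others, and Cox6a2, the heart and muscle form of COX6A, reached 0.397 FPKM at most. These 3 genes did not pass the minimum of a mean FPKM over 1 in a group, which left 81 subunit genes among the 13214 genes tested.

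Over 6 days in N2B27, subunit transcripts fell in WT cells more often than they rose. Of the 81 genes, 22 were lower and 1 was higher at day 6 by limma with Benjamini-Hochberg adjustment at 0.05, while 16.2% of all tested genes were lower and 34.2% were higher. The median log2 fold change of FPKM + 1 was -0.19, with 64 genes below 0, against a median of 0.22 over all tested genes. Complex IV had the lowest median, -0.41, with 7 of 15 genes lower. The medians were -0.34 in complex III, with 3 of 8 lower, and -0.30 in complex V, with 7 of 17 lower and 1 higher. Complex I had a median of -0.09, with 5 of 37 lower. In complex II, which feeds electrons from succinate into the chain, none of the 4 genes passed the test, nor an unadjusted p of 0.05, and the median was -0.03. The mESC and fibroblast markers moved over the same days, with 9 of 9 and 6 of 9 lower in WT, and their part in the result was not tested. The calls rested on few libraries, since without WT day 0 replicate 2 the subunits called were 11, of which 3 were higher, and without each of the WT day 6 libraries in turn they were 9, all lower. With each library centred on its median gene outside chromosomes 6 and 11, 49 subunits were lower and none was higher. Centring moves every gene of a library by the same amount. The median log2 value of all tested genes was 3.05 and 3.12 in the WT libraries of day 0 and 3.45 in both of day 6. Quantile normalisation gave fewer calls than the main fit and a smaller fall of the median.

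Cox7a1, the heart and muscle isoform of COX7A, fell most. It lies on chromosome 7 from 30969190 to 30971049 (mm9, plus strand). Its FPKM was 42.7 and 49.4 in WT at day 0, and 4.61 and 4.24 at day 6. The log2 fold change was -3.12 (SE 0.23, limma adjusted p = 3.29e-05). Ndufa4l2, a paralog of Ndufa4 known to rise under low oxygen, had 23.8 and 4.91 FPKM at day 0 and 0.528 and 0.739 at day 6, a log2 fold change of -2.89 (SE 0.73, limma adjusted p = 0.0114). Cox4i2, the lung isoform of COX4, also known as oxygen-regulated, had 5.60 and 1.75 FPKM at day 0 and 0.282 and 0.105 at day 6, a log2 fold change of -1.84 (SE 0.38, limma adjusted p = 0.0043). Both genes were much higher in replicate 1 than in replicate 2 at day 0. In the Pcgf5-/- cells at day 0 replicate 1 was also the higher, with 20.6 and 4.59 FPKM for Ndufa4l2 and, less far apart, 4.25 and 2.89 for Cox4i2. Cox7b2, a testis isoform of COX7B, had 0.916 and 2.64 FPKM at day 0, and 0 and 0.158 at day 6. Without WT day 0 replicate 1 or WT day 6 replicate 1 the fall of Ndufa4l2 did not pass the test, and that of Cox7b2 did not without WT day 0 replicate 2 or either WT day 6 library. Over all alternatives the log2 fold change of Ndufa4l2 ran from -4.09 to -1.86 and the adjusted p from 0.000229 to 0.0728. For Cox7b2 they ran from -5.26 to -0.83 and from 0.00518 to 0.155. The locus of Ndufa4l2 overlaps Shmt2, and the sources used here do not say that fragments were counted by strand.

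Falls among the abundant subunits were smaller. Ndufb4, an accessory subunit of complex I, had 185 and 221 FPKM at day 0 and 104 and 105 at day 6 (log2 fold change -0.95, SE 0.18, limma adjusted p = 0.00321). Ndufv3, a subunit of the NADH-oxidising module, went from 162 in both libraries to 93.4 and 85.4 FPKM (log2 fold change -0.85, SE 0.12, limma adjusted p = 0.000688). In both genes the libraries of the days lay apart. In complex III, Uqcr10, Uqcrb and the core protein gene Uqcrc1 fell by 0.79, 0.71 and 0.35 on the log2 scale. In complex IV, Cox5a, Cox6a1, Cox7c and Cox7b fell by 0.79, 0.64, 0.52 and 0.51. In the F1 part of the ATP synthase, which makes ATP, 3 of the 5 subunit genes fell. Atp5b went from 576 and 600 to 399 and 375 FPKM (log2 fold change -0.60, SE 0.11, limma adjusted p = 0.00258). Atp5c1, the gamma subunit, and Atp5a1, the alpha subunit, fell by 0.59 and 0.29. Atp5d and Atp5e, the delta and epsilon subunits, did not pass the test, with log2 fold changes of -0.02 for both and libraries that overlapped between the days. Also lower were Atp5j2, Atp5g1, Atp5f1 and the accessory gene Atp5sl, with log2 fold changes of -0.63 to -0.31, and Ndufb10 and Ndufa7 of complex I, with -0.43 and -0.38. The only rise was that of Atp5s, from 1.79 and 3.03 to 4.29 and 4.85 FPKM (log2 fold change 0.73, SE 0.24, limma adjusted p = 0.0355). The call of Atp5s held in 11 of 18 alternatives. Among those that lost it were quantile normalisation and centring each library on its median gene. It was also lost without WT day 0 replicate 1 or either WT day 6 library. Over all alternatives the log2 fold change ran from 0.25 to 0.99.

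The core subunits of complexes I and II named here, most of which carry redox centres, did not pass the test in WT. Ndufs1, the large iron-sulfur subunit, had 40.0 and 52.9 FPKM at day 0 and 39.7 and 34.1 at day 6, a log2 fold change of -0.31 (SE 0.16). For Ndufs8 and Ndufv2 the log2 fold changes were -0.46 and -0.30, and the day 6 libraries lay below those of day 0 in each. For Ndufv1, Ndufs3 and Ndufs7 they were -0.11, 0.33 and 0.09. Sdha, the flavoprotein of complex II, had 68.5 and 65.5 FPKM at day 0 and 65.2 and 59.1 at day 6. The other subunits of complex II lay between -0.10 and 0.14.

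In Pcgf5-/- cells 9 subunits fell and 1 rose over the 6 days, while 10.4% of all tested genes fell and 21.9% rose. The median log2 fold change was -0.18, with 56 of 81 genes below 0, against 0.13 over all tested genes. By complex the medians were 0.01 in I, -0.14 in II, -0.30 in III, -0.32 in IV and -0.23 in V. Ndufa4l2 had 1.63 and 0.947 FPKM at day 6 (log2 fold change -2.28, SE 0.73, limma adjusted p = 0.0446), and Cox4i2 had 0.914 and 0.614 (log2 fold change -1.36, SE 0.38, limma adjusted p = 0.0265). Ndufs5, a small accessory subunit of complex I, went from 7.40 and 7.70 to 2.30 and 2.80 FPKM (log2 fold change -1.27, SE 0.34, limma adjusted p = 0.024). Cox5a went from 186 and 129 to 67.6 and 91.7 FPKM (log2 fold change -0.97, SE 0.21, limma adjusted p = 0.00961). The other genes lower at day 6 were Atp5g3, Uqcrfs1, Uqcr10, Atp5d and Ndufb10, with log2 fold changes of -0.68 to -0.45, and Atp5s rose by 0.83. Over the same days 7 of 9 mESC and 6 of 9 fibroblast markers were lower in Pcgf5-/- cells, and the fibroblast sum was 215 and 795 FPKM in the Pcgf5-/- libraries of day 0, against 335 and 251 in WT. The part of these markers in the result was not tested.

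These calls depended on single libraries. The Pcgf5-/- day 6 libraries differed from each other in the same direction in most subunits, with replicate 2 higher than replicate 1 in 78 of 81 genes at a median log2 difference of 0.35, while the median over all tested genes was 0.03. In the other groups replicate 2 was higher in 64 of 81 genes (WT day 0), 15 of 81 (Pcgf5-/- day 0) and 48 of 81 (WT day 6). At day 0 these differences were larger in the 20 tested subunits with a longest coding transcript under 600 bases, with medians of 0.29 in WT and -0.30 in Pcgf5-/- cells, than in the 61 longer ones, with 0.12 and -0.13. In the Pcgf5-/- day 6 libraries they were 0.36 and 0.34. The part of transcript length in the results was not tested. Without Pcgf5-/- day 0 replicate 1 no subunit was called over the days, without replicate 2 of that group 4 were called, all lower, and without Pcgf5-/- day 6 replicate 1 there were 2 calls, both higher. Without each of the WT day 6 libraries in turn, which enter only through the shared spread, 5 were called. With no filter on low values 2 were called, with only the compared groups in the fit 5, and with no variance trend 4, while centring gave 20, all lower. Quantile normalisation gave fewer calls than the main fit. The median log2 fold change of the subunits was 0.02 without Pcgf5-/- day 6 replicate 1 and -0.28 without replicate 2.

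The changes over time in both genotypes, which share no library, can be set side by side. Both were below 0 in 51 of the 81 subunits and above 0 in 12, the change was below 0 in WT alone in 13 and above 0 in WT alone in 5. Across the 81 genes, which are not independent replicates, Pearson's r was 0.72 and Spearman's rho 0.65, and r was 0.66 over the 76 genes left without Cox7a1, Ndufa4l2, Cox4i2, Cox7b2 and Ndufs5. Atp5s, Cox4i2, Cox5a, Ndufa4l2, Ndufb10 and Uqcr10 passed the test in both genotypes. These 6 genes were 26.1% of the 23 called in WT and 60.0% of the 10 called in Pcgf5-/- cells. Over all 13214 tested genes both changes were below 0 in 29.2% and above 0 in 50.1%, r was 0.78 and rho 0.77, and the genes called the same way in both genotypes were 50.6% of those called in WT and 79.0% of those called in Pcgf5-/- cells. The gene farthest from equal change was Cox7a1.

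**Figure D2:**
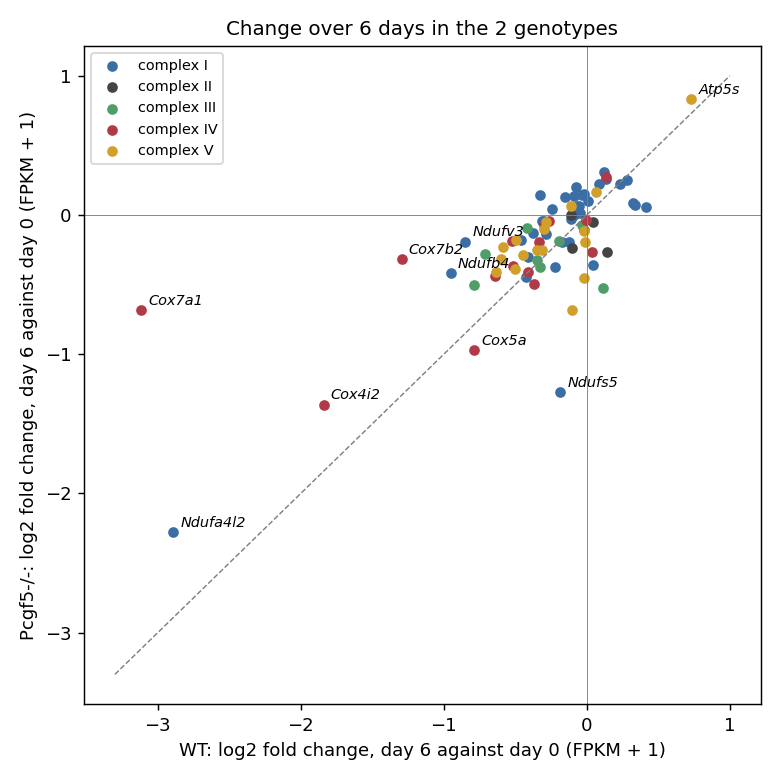
Log2 fold change of FPKM + 1 from day 0 to day 6 of the 81 subunits tested, in WT (horizontal axis) and in Pcgf5-/- cells (vertical axis), with a point for each gene and a dashed line where both are equal. Most points lie in the lower left, below 0 in both genotypes, and Cox7a1 lies well above the line, at -3.12 in WT and -0.68 in Pcgf5-/- cells.

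At day 0 no subunit passed the test between the genotypes, and 0.333% of all tested genes did. At an unadjusted p under 0.05 there were 8 of 81, against 17.4% of all tested genes. The median log2 fold change of the subunits was 0.03, against 0.11 over all tested genes, and it became -0.05 after quantile normalisation and -0.06 after centring, so it has no stable sign. By complex the medians ran from -0.03 in IV to 0.16 in III. Both Pcgf5-/- libraries lay above both WT libraries in 22 subunits and below them in 5, while this was so for 34.6% and 13.3% of all tested genes. The largest differences among these were those of Uqcrq, a small subunit of complex III, Atp5d, the delta subunit of the F1 part of the ATP synthase, and Atp5g1, a gene for the membrane ring of the ATP synthase. Uqcrq had 137 and 204 FPKM in WT and 258 and 251 in Pcgf5-/- cells (log2 fold change 0.61, SE 0.18, limma adjusted p = 0.138). Atp5d had 111 and 110 against 166 and 164 (log2 fold change 0.57, SE 0.15, limma adjusted p = 0.0992). Atp5g1 had 156 and 186 against 255 and 247 (log2 fold change 0.56, SE 0.14, limma adjusted p = 0.0923).

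At day 6, 4 subunits were higher and 2 were lower in Pcgf5-/- than in WT cells, while 9.57% of all tested genes were higher and 7.05% were lower. The median was 0.17, with 64 of 81 genes above 0, against 0.02 over all tested genes. By complex it was 0.20 in I, 0.01 in II, 0.31 in III, 0.17 in IV and 0.11 in V. Both Pcgf5-/- libraries lay above both WT libraries in 34 subunits and below them in 3, while this was so for 33.4% and 28.8% of all tested genes. With each library centred on its median gene outside chromosomes 6 and 11, 9 subunits were higher and 1 was lower. Quantile normalisation gave a smaller median than the main fit. The median rested on the Pcgf5-/- library with the higher subunit levels, since it was 0.31 without replicate 1 and -0.00 without replicate 2. The calls were 2, Cox7a1 and Atp5g1, without Pcgf5-/- replicate 1, and 2, Cox7a1 and Ndufv3, without WT replicate 1. Without Pcgf5-/- replicate 2, or without WT replicate 2, Cox7a1 alone was called.

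Cox7a1 had the largest difference at day 6. It had 4.61 and 4.24 FPKM in WT and 18.4 and 29.6 in Pcgf5-/- cells (log2 fold change 2.17, SE 0.23, limma adjusted p = 0.00377). In all 19 alternatives the difference passed the test, with log2 fold changes of 1.84 to 2.50 and adjusted p from 0.00266 to 0.0275. At day 0 its levels overlapped, with 42.7 and 49.4 FPKM in WT and 44.0 and 33.2 in Pcgf5-/- cells. From day 0 to day 6 it changed by -0.68 (SE 0.23, limma adjusted p = 0.0525) in Pcgf5-/- cells, which missed the threshold, with both day 6 libraries below both day 0 libraries. The genotype effect of Cox7a1 differed between the days by 2.43 (SE 0.33, limma adjusted p = 0.0243). It was the only subunit to pass this test, which 3.09% of all tested genes passed, and the median over the subunits was 0.12 against -0.10 over all tested genes. The call was lost without Pcgf5-/- day 0 replicate 2, without either Pcgf5-/- day 6 library, without replicate 2 of WT at either day, and with no filter on low values, and over all alternatives the adjusted p ran from 0.0154 to 0.104. The 9 mESC markers moved the same way, with sums at day 6 of 453 and 260 in WT and 1067 and 1053 in Pcgf5-/- cells. Of them 7 were higher and none was lower, against 9.57% and 7.05% of all tested genes. The neural markers went the other way, with 6 of 6 progenitor and 3 of 6 neuron markers lower and none higher. Of 9 fibroblast markers 1 was lower. The part of these markers in the result was not tested.

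The other 3 subunits that were higher at day 6 in Pcgf5-/- cells changed less. Atp5g1 had 119 and 120 FPKM in WT and 172 and 212 in Pcgf5-/- cells (log2 fold change 0.67, SE 0.14, limma adjusted p = 0.0175). Ndufv3 had 93.4 and 85.4 against 128 and 141 (log2 fold change 0.58, SE 0.12, limma adjusted p = 0.0176). Uqcr10 had 143 and 146 against 197 and 236 (log2 fold change 0.58, SE 0.15, limma adjusted p = 0.0364). Each of the 3 genes had fallen in WT over the 6 days, a change that uses the same WT day 6 libraries. In Pcgf5-/- cells Uqcr10 also fell, and Atp5g1 had a log2 fold change of -0.39 without a call. At day 0 both Pcgf5-/- libraries already lay above both WT libraries for Atp5g1 and Uqcr10, with log2 fold changes of 0.56 and 0.29. Ndufv3 overlapped at day 0, with -0.08. Lower in Pcgf5-/- cells were Ndufs5, with 6.40 and 9.54 FPKM in WT and 2.30 and 2.80 in Pcgf5-/- cells (log2 fold change -1.32, SE 0.34, limma adjusted p = 0.0354), and Cox6b2, a testis isoform of COX6B, with 50.3 and 54.3 against 39.1 and 39.7 (log2 fold change -0.40, SE 0.11, limma adjusted p = 0.0443). Ndufs5 was uneven between the WT libraries of day 0, with 13.7 and 5.83 FPKM. The call of Cox6b2 held in 7 of 19 alternatives, with log2 fold changes of -0.49 to -0.32 and adjusted p from 0.0195 to 0.214, and it did not hold after centring. For Ndufv3 and Ndufs5 the difference between the days was 0.66 (limma adjusted p = 0.0729) and -1.09 (limma adjusted p = 0.225). The core and catalytic subunits named here gave no call at day 6, and Atp5b, Atp5c1 and Atp5a1 had log2 fold changes of 0.29, 0.28 and 0.22, with the Pcgf5-/- libraries above the WT libraries in each.

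**Figure D3:**
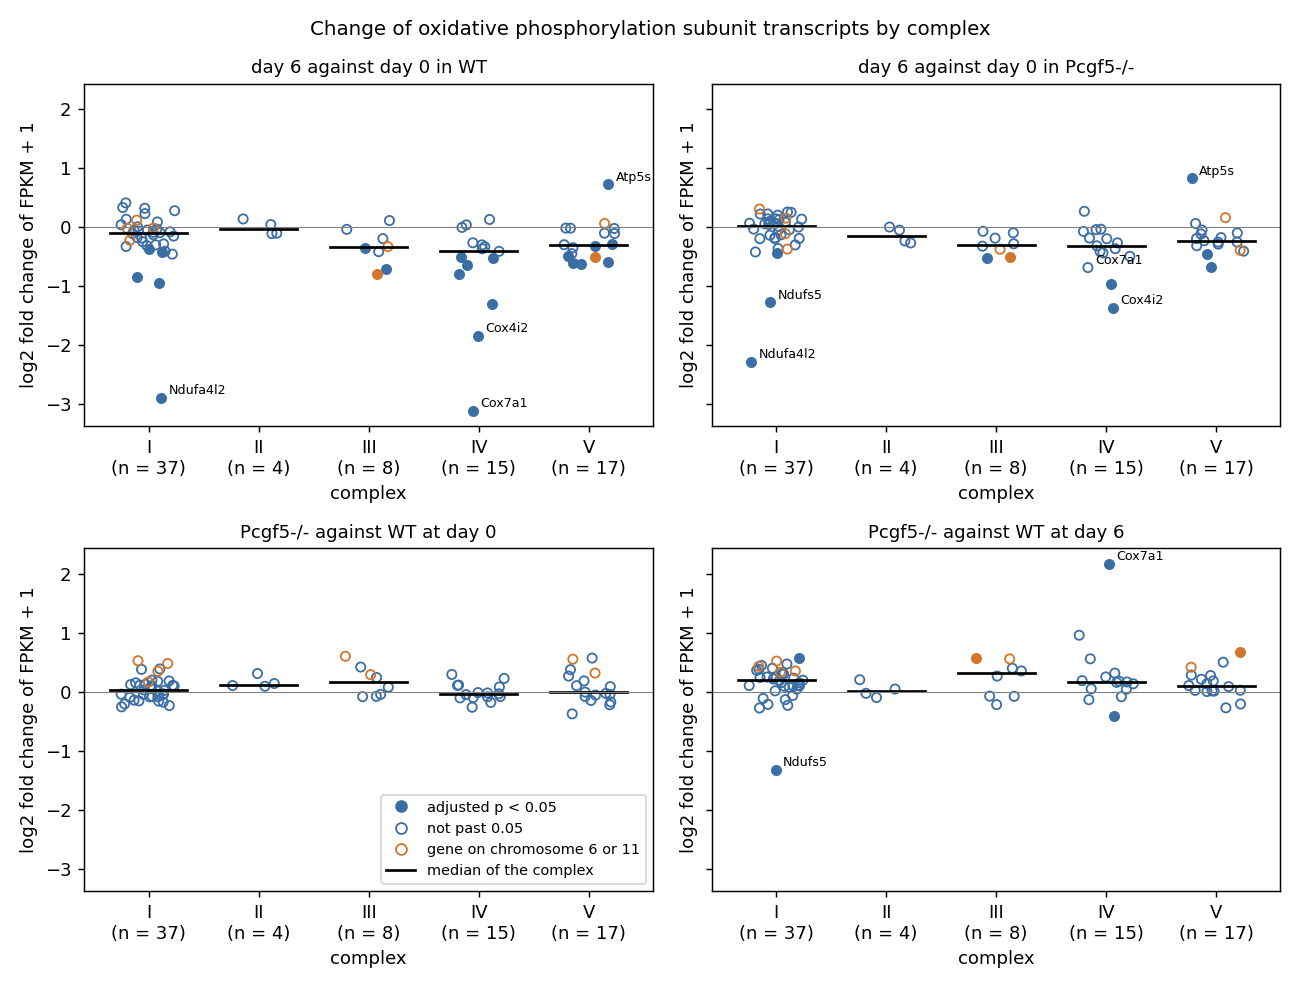
Log2 fold change of FPKM + 1 of the tested subunits in 4 comparisons (panels), by complex (horizontal axis), with a point for each gene, filled where the limma adjusted p is under 0.05, orange for genes on chromosome 6 or 11, and a line at the median of the complex. In WT the medians of complexes III, IV and V lie between -0.41 and -0.30, and Cox7a1 stands apart at 2.17 in the comparison of the genotypes at day 6.

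Within the isoform families of complex IV the widely used form made up nearly all FPKM except for COX7A and COX6B. Cox7a1 made up 33.5% and 32.0% of the FPKM of Cox7a1 and Cox7a2 together in the WT libraries of day 0, and 31.3% and 28.7% in the Pcgf5-/- libraries. At day 6 its share was 5.41% and 5.75% in WT and 21.8% and 24.5% in Pcgf5-/- cells. The level of Cox7a2, the widely used form, gave no call in any comparison, with 80.6 and 69.5 FPKM in WT and 66.1 and 91.4 in Pcgf5-/- cells at day 6. Cox6b2 made up 14.5% to 21.3% of the FPKM of Cox6b1 and Cox6b2. Cox4i2 was at most 1.49% of its family, Cox7b2 at most 1.93% and Cox6a2 at most 0.125%. Ndufa4l2 made up 9.39% and 4.77% of the FPKM of Ndufa4 and Ndufa4l2 in replicate 1 of the WT and Pcgf5-/- cells at day 0, 1.82% and 1.56% in replicate 2, and under 1% at day 6.

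The membrane ring of the ATP synthase is made of identical proteins from 3 genes, Atp5g1, Atp5g2 and Atp5g3, which differ only in the import signal that is cut off. Atp5g1 gave 31.0% and 30.8% of their FPKM in WT at day 0, and 36.5% and 40.8% in Pcgf5-/- cells. At day 6 the shares were 25.4% in both WT libraries, and 38.3% and 33.9% in Pcgf5-/- cells. Its share was thus higher in the Pcgf5-/- libraries on both days. Atp5g2 has 3 near-identical genomic copies, so its share is less certain.

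**Figure D4:**
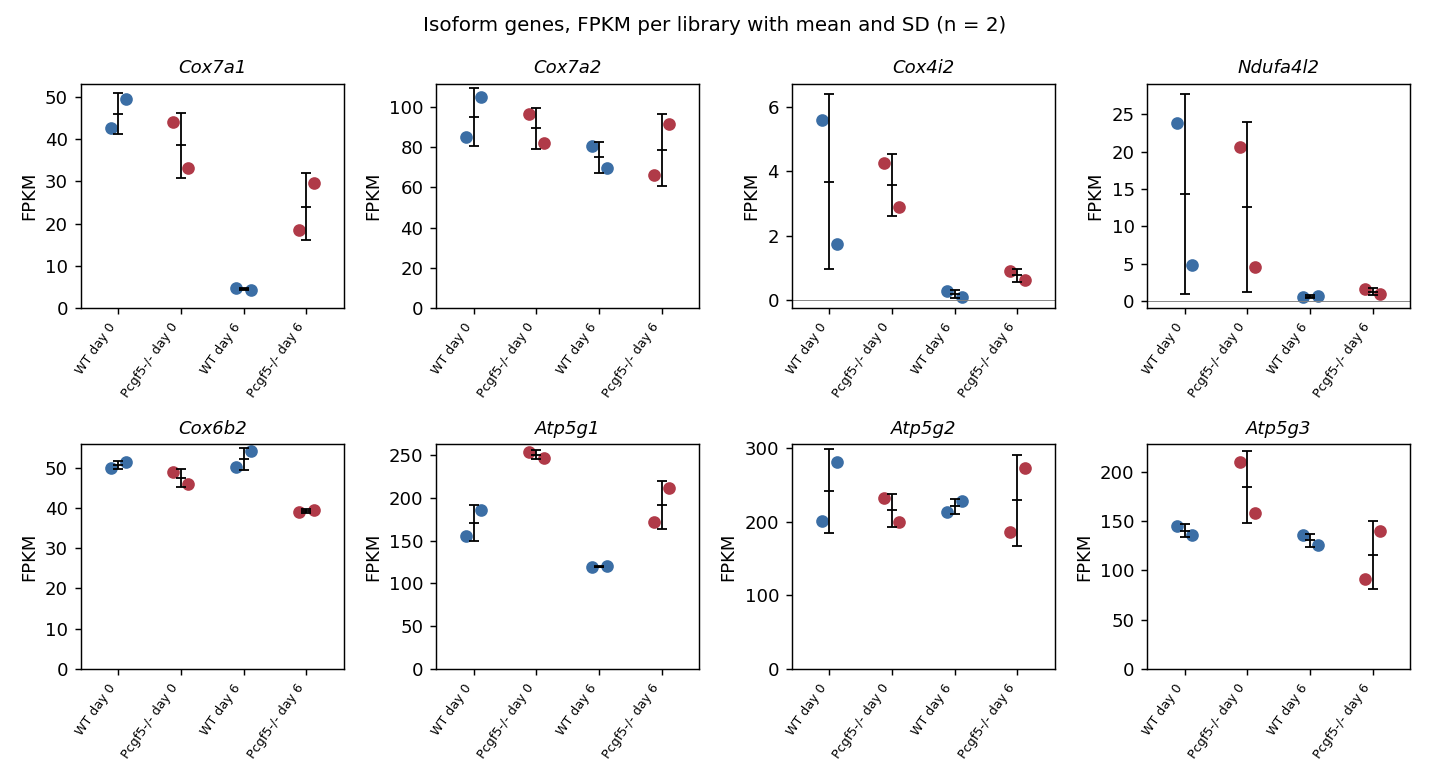
FPKM (vertical axis) of 8 isoform genes (panels) in the 4 groups, with a point for each library (replicate 1 left, replicate 2 right), and a bar at the mean with the SD (n = 2). Cox7a1 was at 4.61 and 4.24 in the WT libraries of day 6 and at 18.4 and 29.6 in the Pcgf5-/- libraries, while Cox7a2 overlapped between the genotypes, and Ndufa4l2 was high in replicate 1 of both genotypes at day 0.

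The difference between the genotypes varied with the chromosome. Of the tested subunits 8 lie on chromosomes 6 and 11 (Ndufa4, Ndufa5, Ndufa9 and Ndufb2 on 6, Uqcr10, Uqcrq, Atp5g1 and Atp5h on 11). All 8 had a positive log2 fold change in Pcgf5-/- cells on both days, with a median of 0.42 at day 0 and 0.48 at day 6. The median over all 1729 tested genes on these chromosomes was 0.46 at day 0 and 0.37 at day 6, against 0.07 and -0.02 over the other 11485. The 73 subunits on other chromosomes had a median of -0.01 at day 0, with 35 above and 38 below 0, and of 0.14 at day 6, with 56 above and 17 below 0. Of the 6 subunits called at day 6, Atp5g1 and Uqcr10 were on chromosome 11. Cox7a1, Ndufv3, Ndufs5 and Cox6b2 were on others, and all 4 were still called with the genes of chromosomes 6 and 11 left out of the fit. In complex III the median at day 6 went from 0.31 to 0.10 without Uqcr10 and Uqcrq. The changes over time depended less on position, with medians of -0.19 in WT and -0.18 in Pcgf5-/- cells over the 73 genes, and 20 of them lower in WT.

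Genes that serve the same pathway were counted for comparison. Of 20 subunits and carriers that the naming rule misses, 7 were in the files and tested, none of them encoded by mitochondrial DNA. Among these, Cyct, the testis form of cytochrome c, had 7.85 and 3.25 FPKM in WT at day 6 and 37.4 and 35.5 in Pcgf5-/- cells (log2 fold change 2.61, SE 0.31, limma adjusted p = 0.00421). It also lay apart at day 0, with 4.04 and 5.42 against 14.2 and 16.4 FPKM. Cyc1, Cycs and Ndufab1 gave no call. Of the 7 genes, Cyct alone was called between the genotypes at day 6, while 9.57% of all tested genes were higher and 7.05% were lower. Over the 6 days none of the 7 was called in WT. In Pcgf5-/- cells 2 rose and none fell, against 21.9% and 10.4% of all tested genes. They were Cyct, with the levels given above, and Atpif1, the inhibitor of the ATP synthase, which rose by 0.60 on the log2 scale. Of 36 assembly factors tested, 4 rose and 3 fell in WT over the 6 days, while 34.2% of all tested genes rose and 16.2% fell. Cox17, a copper chaperone for complex IV, was lower (log2 fold change -0.81), and Sdhaf1, an assembly factor of complex II, was higher (1.21). In Pcgf5-/- cells 2 rose and 2 fell, against 21.9% and 10.4% of all tested genes, and Cox17 was again lower (-0.48). Between the genotypes at day 6, Cox17 and Cox18 were higher in Pcgf5-/- cells, by 0.53 and 0.62, and none was lower. Of all tested genes 9.57% were higher and 7.05% were lower.

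Of 17 genes of the citrate cycle and the pyruvate dehydrogenase complex, 2 rose and 3 fell in WT. The shares over all tested genes were 34.2% and 16.2%. Pdha1, the catalytic alpha subunit of pyruvate dehydrogenase, had a log2 fold change of -0.78 and Idh3a, of the NAD-dependent isocitrate dehydrogenase, one of -0.70. In Pcgf5-/- cells Pdha1 was the only call (-0.56), while 21.9% of all tested genes rose and 10.4% fell. At day 6, Idh3a, Ogdh and Suclg2 were higher in Pcgf5-/- than in WT cells, by 0.56, 0.61 and 0.54, and none was lower. Of all tested genes 9.57% were higher and 7.05% were lower. Idh3a lies on chromosome 9, but Ogdh lies on chromosome 11 and Suclg2 on chromosome 6, where the median of all tested genes was 0.37. Of 13 regulators of mitochondrial genes tested, 4 rose and 3 fell in WT, against 34.2% and 16.2% of all tested genes. In Pcgf5-/- cells 5 rose and 2 fell, against 21.9% and 10.4%. Gabpa, the DNA-binding subunit of GABP, went from 48.5 and 44.7 to 21.6 and 18.8 FPKM in WT (log2 fold change -1.17, SE 0.15, limma adjusted p = 0.000448), and fell by 0.71 in Pcgf5-/- cells. Ppargc1b, a co-activator, rose by 1.04 and 0.83. Nrf1 gave no call, with 18.7 to 28.1 FPKM in all libraries. Tefm, an elongation factor of mitochondrial transcription, was the only regulator called between the genotypes at day 6 (log2 fold change 0.94), and it too lies on chromosome 11. At day 0, none of the 73 tested genes of these 4 lists passed the limma test between the genotypes, and 17 had an unadjusted p under 0.05, against 17.4% of all tested genes.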

How the data were processed

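PolyA RNA of WT and Pcgf5-/- mESCs at day 0 and day 6 was sequenced from 2 libraries per group. Before alignment the authors trimmed the read pairs and discarded reads that were short, repeated another read exactly or held many undetermined bases. Their deposited files give an FPKM for each gene. The submitters' processing notes name mm9, TopHat2 2.0.4 and Cufflinks 2.1.1. The annotation is not given in the sources used here. Discarding exact repeats can depress the FPKM of abundant, short transcripts, a class that many subunits belong to. Fragment numbers are not in the files, so no counting interval can be given.

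The files were joined by symbol and locus, and starts were written 1-based. The 13214 of 24849 genes whose mean passed 1 FPKM in some group were analysed as log2(FPKM + 1), so fold changes of weak genes are understated. All 8 libraries entered 1 fit of limma 3.58.1 (R 4.3.3) with 4 group means, a variance trend and no replicate block, with Benjamini-Hochberg adjustment over all genes tested. A gene is said to have risen, fallen or been called at an adjusted p under 0.05. The fit was tested on data simulated with independent noise for each gene. Such data hold no shifts shared by many genes of a library, and no conclusion is drawn from them here. Medians and counts over the subunits are descriptions beside the same over all genes tested. Named were the subunits with up to 6 largest rises and 6 largest falls among the calls of a contrast, in contrasts with fewer than 3 calls the 3 largest differences with libraries apart, the isoform families, the core redox and catalytic subunits, the extremes of level, and genes matching by spelling alone. Smaller falls in WT were named after their values were seen. The subunits, lists and tests were chosen with earlier results of these data known. Of all 84 genes, 84 matched a coding transcript of GENCODE vM1 on NCBIM37 (mm9), 22 of them under 600 bases, 23 loci overlapped another gene, and 10 genes had a near-identical copy elsewhere (at least 95% identity over 80% of the transcript, minimap2 2.31-r1302), among them Atp5g2, Atp5h, Atp5l, Cox5b, Uqcrb and Uqcrh, whose values are less certain. Alternatives were other pseudocounts and minimums, quantile normalisation, centring, a replicate block, a fit of the compared groups only, no trend, no genes of chromosomes 6 and 11, and each library left out.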

Additional observations from a re-analysis of the deposited data

Results flagged for a closer look

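The genotype effect of Cox7a1 differed between the days in the limma test of that difference. Its log2 fold change, Pcgf5-/- against WT, was 2.43 higher at day 6 than at day 0 (SE 0.33, limma adjusted p = 0.0243). At day 6 both Pcgf5-/- libraries lay above both WT libraries, and at day 0 the genotypes overlapped. The call held in 12 of 18 alternatives, where the adjusted p ran from 0.0154 to 0.104, and was lost in 5 fits without 1 library and in the fit without a filter on low values.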

How the results depend on the processing

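With 2 libraries per group, most calls depended on single libraries, among them that of Cox7a1 for the difference between the days. The depth behind each FPKM is unknown. Where leaving out a library left a group with 1, that library was assumed to vary like the others. Leaving out each library gave 0 calls at day 0, 1 to 6 at day 6 (main value 6), 9 to 23 over the days in WT (main value 23), 0 to 9 in Pcgf5-/- cells (main value 10) and 0 to 1 for the difference between the days (main value 1). The medians ran from -0.07 to 0.16, from -0.00 to 0.31, from -0.28 to -0.14, from -0.28 to 0.02 and from -0.05 to 0.28 in the same order. Centring each library on its median gene outside chromosomes 6 and 11 gave 10 calls at day 6, 49 in WT and 20 in Pcgf5-/- cells, all of those over the days lower, and moved the WT median to -0.55, the Pcgf5-/- median to -0.36 and that of day 6 to 0.25. Quantile normalisation gave 7, 18 and 7 calls and medians of 0.07, -0.10 and -0.06. With no filter on low values, Pcgf5-/- cells had 2 calls over the days and the difference between the days had 0, and the cause was not tested. A fit of the compared groups only gave 5 calls in Pcgf5-/- cells, and a fit without the variance trend gave 4. Among single named subunits, 384 values stayed on their side of the threshold, 98 lost the call and none changed direction. The values that stayed include results that were never called, such as Atp5d at day 0. In many of these fits the direction could not change. A replicate block, a fit of the compared groups only, no trend, another minimum or fewer chromosomes leaves each log2 fold change as it was. So does leaving out a library that is not compared.

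The replicate numbers were not taken as pairs: the deviations of equal numbers correlated at 0.10 between the genotypes at day 0, 0.39 at day 6 and -0.08 to -0.02 across the days. A replicate block shared by all groups gave 0 calls at day 0, 8 at day 6, 21 in WT, 11 in Pcgf5-/- cells and 1 for the difference between the days. A replicate block within each day gave 0, 7, 21, 13 and 1. The medians cannot move under either block, since each group holds 1 library of each replicate number.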
